A study of Homo sapiens with 12 samples.

Results

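Clusters of acetylated distal chromatin were mapped in HCC70 cells, an established basal-like, triple-negative breast cancer line, from chromatin immunoprecipitation and sequencing (ChIP-seq) of the histone mark H3K27ac. The 500 clusters were chosen by their summed width in the H3K27ac list of vehicle-treated cells. Listed regions (rows) that came within 2 kb of a GENCODE protein-coding transcript start were dropped, the remaining 68820 rows were stitched where gaps were at most 12500 bp, and of the 17876 resulting domains the 500 with the largest summed row width were taken. They held 15716 rows, called constituents below, which is 22.8% of the promoter-distal rows and 27.2% of their bases. The cells were treated for 24 h with vehicle or with XY018, which blocks the nuclear receptor RORγ; its dose is 5 µM by the labels and lower in the study's methods. All groups were the same unmodified line in serum-containing medium. Antibodies against H3K27ac, against the sterol-regulated transcription factor SREBP2 and against RORγ (a rabbit serum) gave 1 library each per treatment. These 6 groups of 1 library allow no test, and the intervals below cover counting error or spread among rows only. More cells carrying the mark or the factor, and more of it per cell, cannot be told apart in such pooled material.

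H3K27ac is deposited on nucleosomes beside active promoters and enhancers by the acetyltransferases p300 and CBP. Genes that define a cell type often lie among long runs of acetylated enhancers, which are commonly called super-enhancers when they are ranked by signal. Here the ranking used width alone, and 386 of the 500 clusters (77.2%) overlapped the 500 that summed width times fold enrichment would have taken. SREBP2 is the activator of cholesterol synthesis and uptake genes and binds sterol response elements. RORγ binds ROR response elements, an AGGTCA hexamer behind an AT-rich stretch.

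Depth and list size set what can be compared. Depth recovered from the deposited peak values was 6.16 and 5.62 tags per kb of genome for the H3K27ac vehicle and XY018 libraries, and lay between 3.65 and 5.92 for the other libraries. The H3K27ac lists held 95100 rows with vehicle and 105372 with XY018, both being parts of longer call sets. The SREBP2 lists held 117496 and 69736 regions, and the RORγ lists 167375 and 130047. Of the constituents, 77.4% lay more than 2 kb from every annotated transcript start, noncoding ones included, beside 79.1% of promoter-distal rows outside the clusters. The other constituents came within that distance of a start that is not protein-coding. Such a distance alone does not identify an enhancer. Of the constituent summits, 61.0% fell in introns, 6.81% in exons of protein-coding genes and 32.2% outside such genes.

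The strongest sites of the 3 widest clusters, and the site with the highest SREBP2 fold among all constituents, are shown to let the sequence behind the peaks be read. Each run is 300 bases of the plus strand of hg19 (GRCh37) centred on the summit. Places in or outside genes refer to protein-coding genes only. The site of the ERRFI1 cluster lay nearest to the start of SLC45A1, 100827 bp away. Capitals mark matches, on either strand, to the short motifs searched, which were AP-1 (TGANTCA), the nuclear receptor hexamer AGGTCA, the GC box (GGGCGGG), the sterol response element (SRE) TCACNCCAC, the E-box CACGTG, TEAD (GGAATG) and ETS (CGGAAG).
ARHGEF10L cluster, intron of ARHGEF10L, chr1:17882569-17882868: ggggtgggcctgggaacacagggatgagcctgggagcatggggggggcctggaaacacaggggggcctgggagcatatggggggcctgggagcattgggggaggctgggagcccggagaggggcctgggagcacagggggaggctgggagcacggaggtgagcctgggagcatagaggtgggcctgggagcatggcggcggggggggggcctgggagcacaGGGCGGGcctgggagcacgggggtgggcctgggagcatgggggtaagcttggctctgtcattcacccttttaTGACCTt
ERRFI1 cluster, outside genes, chr1:8277197-8277496: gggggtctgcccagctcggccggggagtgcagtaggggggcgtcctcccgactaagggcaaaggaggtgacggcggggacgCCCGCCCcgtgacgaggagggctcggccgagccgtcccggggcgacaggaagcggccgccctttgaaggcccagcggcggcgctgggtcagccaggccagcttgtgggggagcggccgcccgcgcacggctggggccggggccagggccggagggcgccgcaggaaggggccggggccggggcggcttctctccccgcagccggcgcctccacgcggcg
CEACAM16 cluster, intron of BCL3 beside a coding exon, chr19:45261326-45261625: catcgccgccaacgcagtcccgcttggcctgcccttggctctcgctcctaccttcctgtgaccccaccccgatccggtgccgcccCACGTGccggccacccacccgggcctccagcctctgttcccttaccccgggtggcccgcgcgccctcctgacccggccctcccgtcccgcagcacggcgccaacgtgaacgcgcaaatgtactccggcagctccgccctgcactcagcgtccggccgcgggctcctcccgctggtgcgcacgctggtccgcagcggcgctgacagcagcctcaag
SKI cluster, SREBP2 summit in an intron of SKI, chr1:2237645-2237944: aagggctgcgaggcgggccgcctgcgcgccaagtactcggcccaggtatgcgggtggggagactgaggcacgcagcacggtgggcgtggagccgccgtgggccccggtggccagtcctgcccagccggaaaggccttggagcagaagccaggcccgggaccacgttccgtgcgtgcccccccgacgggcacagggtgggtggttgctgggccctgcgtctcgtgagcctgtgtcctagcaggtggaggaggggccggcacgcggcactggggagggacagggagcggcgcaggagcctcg
G and C made up 70.0%, 79.3%, 73.3% and 73.7% of these bases in that order. The first held a GC box and an AGGTCA match, the second a GC box and the third an E-box, whereas none of the searched motifs was found around the SREBP2 summit in SKI. At that SKI summit 84 SREBP2 fragments were counted with vehicle and 52 with XY018, beside 65 and 56 RORγ fragments. At the ERRFI1 site SREBP2 went from 69 to 51 fragments and RORγ from 69 to 42, while H3K27ac went from 63 to 104. At the CEACAM16 site the highest SREBP2 region went from 64 to 55 and RORγ from 61 to 65 fragments, with H3K27ac at 93 and 102. At the ARHGEF10L site SREBP2 had 30 fragments with vehicle and no region with XY018, RORγ had no region with vehicle and 10 fragments with XY018, and H3K27ac had 79 and 96. The 3 H3K27ac sites were thus higher with XY018 in fragments, SREBP2 was lower at each, and RORγ moved in both directions.

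Widths formed a continuous slope with no gap at the 500th rank, which the plot of summed width by rank shows. The clusters spanned 20.5 to 293 kb (median 74.7 kb), held 8 to 114 rows (median 27) and had 12127 to 81668 acetylated bases (median 17714). Between 10.9% and 69.9% of a span lay under rows, with a median of 25.9%. The last members were the clusters near SYNJ2 and ENSG00000268083, at 12132 and 12127 bp. The first domains outside the 500 were near DAPK1 and CTNND1, at 12124 and 12090 bp. These widths chose the members and are a description only.

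**Figure D1:**
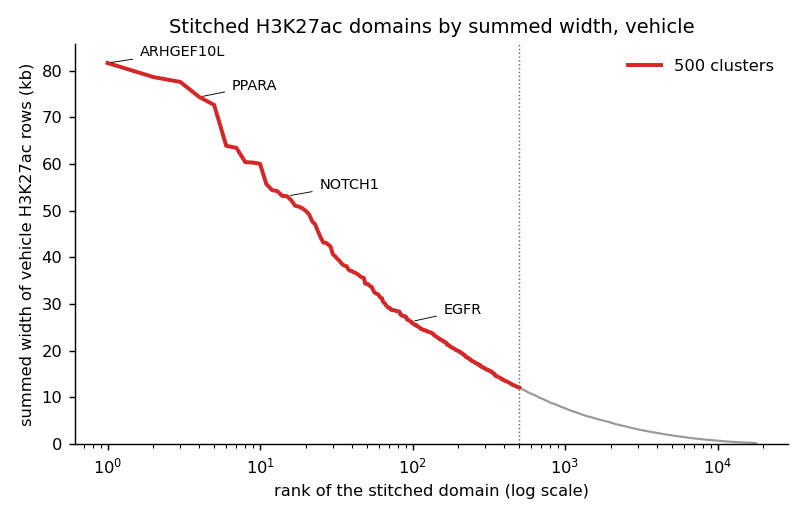
Summed width of vehicle H3K27ac rows (kb) in each of the 17876 stitched domains against rank (log scale), with the 500 clusters in red and the dotted line at rank 500. Width falls from 81668 bp at rank 1 to 12127 bp at rank 500 without a step.

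Each cluster takes the name of the protein-coding gene whose start is nearest to the middle of its span. The widest lay over ARHGEF10L, a guanine nucleotide exchange factor gene (chr1:17730628-18023842, 114 rows, 81668 bp with vehicle and 84431 bp with XY018). The next lay over ERRFI1, a feedback inhibitor of the EGF receptor (chr1:8065553-8281092), and overlapped the widest XY018 domain. Inside its span XY018 rows summed to 94616 bp, against 78656 bp with vehicle. The third, named for CEACAM16 (chr19:45074384-45316983), ran over 7 starts that included BCL3, an atypical IκB protein, and the adhesion genes PVR and BCAM. It measured 77607 bp with vehicle and 75269 bp with XY018. These 3 sums differed between the treatments by at most 1.203-fold.

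The following ranks held genes of varied function. The cluster over PPARA, the nuclear receptor of fatty acid oxidation, measured 74369 and 73522 bp with vehicle and XY018. That over CEBPB, a leucine zipper factor of inflammation and mammary differentiation, measured 72687 and 65727 bp. The cluster at rank 6, nearest to GPR37L1, contained the start of ELF3, an epithelial ETS factor, and measured 63927 and 66764 bp. That over RCOR1, a corepressor subunit, measured 63484 and 66990 bp. The cluster at rank 8 held the starts of both CDH3 and CDH1, which encode P-cadherin and E-cadherin, and measured 60426 and 68923 bp. WASF2, an actin regulator, B4GALT5, a galactosyltransferase, ZSWIM4 and ENSG00000258989 completed the 12 widest, with 54429 to 60333 bp with vehicle and 46133 to 65790 bp with XY018. All 12 overlapped a domain among the first 43 with XY018.

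**Figure D2:**
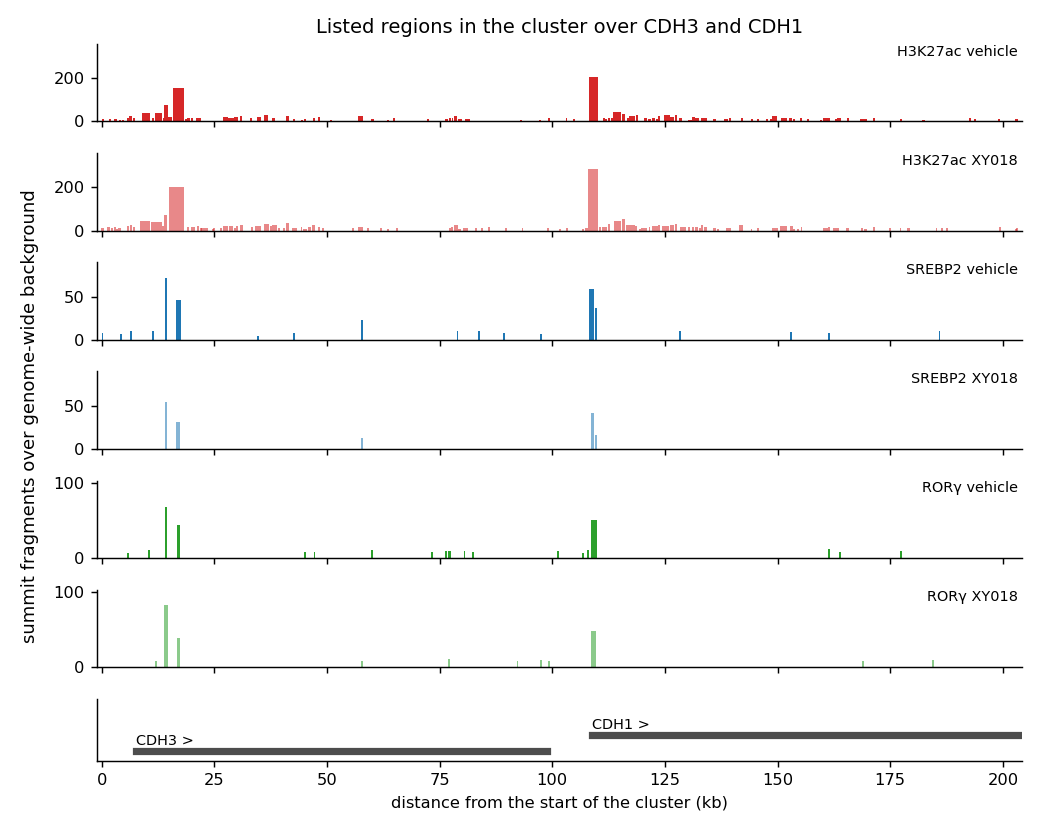
Listed regions of the 6 libraries across the cluster over CDH3 and CDH1, drawn as summit fragments over the genome-wide background of each library against distance from the cluster's start (kb), with rows at protein-coding starts included, bars drawn at least 0.4 kb wide and the gene bodies below. The tallest bars of every track stand toward the left end of CDH3 and at the left end of CDH1, and lower H3K27ac bars fill much of the rest of the 203 kb.

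In the CDH3 and CDH1 cluster itself, whose constituents leave out the promoters, 12 SREBP2 regions were listed with vehicle and 1 with XY018. RORγ had 11 and 5. The highest SREBP2 region had 23 fragments with vehicle and the 1 with XY018 had 15, and the highest RORγ regions had 9 and 7. H3K27ac rows were largely kept there, 80 of 95. Most of the distal factor regions of this cluster were missing from the XY018 lists, and most of its acetylated rows were present.

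Genes with starts inside the spans were counted by lists that were drawn up with earlier results of these data known. The annotation gave 729 protein-coding genes a start inside a cluster, 3.69% of all 19748, and 118 clusters held none. Of 33 genes of simple and luminal epithelium, 7 (21.2%) had their start in a cluster. They were CDH1, ELF3, the keratins KRT7 and KRT80, the splicing regulator ESRP2, the tight junction gene CLDN4 and FOXA1, a pioneer factor. Of 30 basal genes, 3 (10%) did: CDH3, EGFR and SFN. TP63, the master regulator of basal cells, named a further cluster by nearest start, with 13236 bp under vehicle and 11706 bp under XY018. That span held no start, and its middle lay 138763 bp from the start of TP63. Among 13 mesenchymal genes only SNAI1 was inside a cluster (21624 and 20409 bp). Of 18 genes of blood, muscle, nerve and liver, 1 was, TAL1, in a span of 3 starts. The share in clusters was above that of all genes for 12 of the 13 lists, the mesenchymal list (7.69%) and that of other lineages (5.56%) included, so a larger share was not particular to the epithelial lists.

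Signalling genes were also represented. Of 20 AP-1 and immediate early genes, 4 had their start inside a cluster, namely FOS, IER2, IER3 and MAFF. The FOS cluster measured 26000 bp with vehicle and 29455 bp with XY018, and the IER2 cluster 36836 and 38216 bp. Of 24 genes of EGF-family and receptor kinase signalling, ERRFI1, EGFR, EPHA2 and EPHB4 did. EGFR, the EGF receptor, measured 26250 and 27058 bp, and EPHA2 37091 and 40239 bp. Of 17 TGF-β genes, ID1, ID3, SKIL and SMAD3 did, and SKI, a repressor of SMAD signalling, named a cluster that held no start (30551 and 30263 bp).

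Further lists gave AMOTL2 and WWTR1 (TAZ) of 16 Hippo pathway genes, and NFKBIA, RELB and LIF of 22 NF-κB and cytokine genes. AMOTL2 measured 38418 and 37008 bp, and WWTR1 16505 and 11920 bp. MYC named 2 clusters that did not hold its start, at ranks 211 and 489, whose middles lay 123938 and 63516 bp from it. They measured 19445 and 12242 bp under vehicle and 22836 and 12522 bp under XY018. No start of the 17 MYC and G1 genes lay inside a cluster. Of 22 ROR and clock genes with a start, 1 (4.55%) did.

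The study was concerned with sterol genes. Of 21 cholesterol synthesis enzymes 2 (9.52%) had their start in a cluster, among them MVD, and of 18 sterol regulators 3 (16.7%) did, among them SREBF1 and SREBF2, beside 3.69% of all genes. The cluster that holds SREBF1, named for RAI1 (rank 17, chr17:17578296-17757973), measured 51070 bp with vehicle and 50966 bp with XY018, and its SREBP2 regions numbered 21 and 20. The cluster over SREBF2, the gene of SREBP2 itself, measured 23099 and 21884 bp, with 3 weak SREBP2 regions with vehicle and none with XY018. The span with MVD, an enzyme of the mevalonate pathway, measured 12634 and 13835 bp and had 20 and 16 SREBP2 regions. The largest ratio of XY018 to vehicle width among these 3 spans was 1.095, at MVD, and the smallest 0.947, at SREBF2.

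Of 3026 annotated microRNA genes 94 lay in cluster spans, where 729 of 19748 protein-coding genes had a start in one. Of these 94, 59 were matched by symbol to RefSeq mature sequences (tables built on GRCh38.p14, places below from hg19). The few shown were picked, after they were seen, as the well-known ones in clusters of high rank, with the seed, bases 2 to 8, in capitals. No RNA was measured in these files.
hsa-let-7b-5p, PPARA cluster: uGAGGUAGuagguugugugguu
hsa-miR-23a-3p, ZSWIM4 cluster: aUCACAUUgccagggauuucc
hsa-miR-27a-3p, ZSWIM4 cluster: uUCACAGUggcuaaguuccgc
hsa-miR-200a-3p, TNFRSF18 cluster: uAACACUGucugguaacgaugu
hsa-miR-200b-3p, TNFRSF18 cluster: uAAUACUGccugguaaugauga
hsa-miR-429, TNFRSF18 cluster: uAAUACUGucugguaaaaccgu
hsa-miR-33b-5p, RAI1 cluster, in an intron of SREBF1: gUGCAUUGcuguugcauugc
hsa-miR-21-5p, TUBD1 cluster, in VMP1: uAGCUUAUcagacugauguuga
The miR-200 family keeps epithelial cells epithelial by repressing ZEB1 and ZEB2, and miR-200b-3p and miR-429 share a seed. Their genes (chr1:1102484-1102578 for MIR200B and chr1:1104385-1104467 for MIR429) sat in a cluster that measured 54200 bp with vehicle and 54113 bp with XY018. MIR33B (chr17:17717150-17717245), whose microRNA targets the cholesterol exporter ABCA1, shared the cluster of its host gene. The cluster with MIR21 measured 39371 and 37032 bp.

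With XY018 the summed acetylated width of the 500 spans was 10.53 Mb, against 10.68 Mb with vehicle, a ratio of 0.986. Single clusters ranged from 0.527 to 1.58 with a median of 0.974, and 280 of 500 were below 1. The direction depended on which library chose the clusters: for 500 clusters built from the XY018 list by the same rule, the ratio of XY018 to vehicle was 1.12. Past 1.5-fold, 1 cluster (0.2%) was wider with XY018 and 8 (1.6%) were narrower, where 4.97% and 46.6% of all domains were. The median domain held 2 rows and the median cluster 27, and the part of row number in this contrast was not tested.

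**Figure D3:**
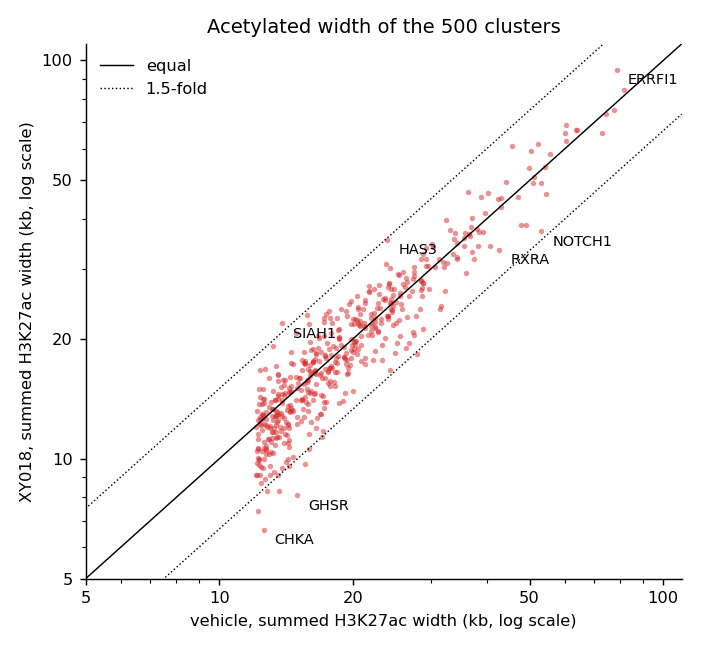
Summed H3K27ac width (kb, log scales) of each of the 500 clusters with vehicle (horizontal) and XY018 (vertical), with the line of equality and dotted lines at 1.5-fold. Of the 500 points, 1 lies above the upper dotted line and 8 below the lower one.

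The cluster over SIAH1, a ubiquitin ligase gene, widened most by ratio, from 13870 to 21908 bp. It was followed by HAS3, hyaluronan synthase 3, from 23922 to 35503 bp. The clusters nearest to TGIF1, SH2D6 and KLF10 came next, the last going from 14927 to 20710 bp. The largest falls by ratio were at CHKA, the choline kinase gene, from 12589 to 6631 bp, and nearest to GHSR, from 15000 to 8110 bp. ST3GAL4, PIP5K1A and ATAT1 followed, with ratios of 0.603, 0.610 and 0.624. Fragments were summed only over pairs of vehicle and XY018 rows that overlapped only each other, 9 of 19 vehicle rows at CHKA and 11 of 31 near GHSR. Rows lost or new with XY018 enter the width and not these sums, so the measures are not alike. At CHKA the paired rows held 122 fragments with vehicle and 102 with XY018, which is 0.916 after scaling, and near GHSR 204 and 192, which is 1.03. The FOXA1 cluster was lower in width (14389 to 10717 bp) and in fragments (356 to 277, which is 0.852 after scaling). NOTCH1, at rank 15, went from 53134 to 37283 bp and from 826 to 730 fragments, which is 0.968 after scaling.

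The set of clusters was largely found again. Of the 500 spans, 398 (79.6%, 95% interval 75.8 to 83.0) overlapped one of the 500 domains that the same rule took from the XY018 list. Of the first 100 ranks 99 were found again, and of the last 100 ranks 50. For the 102 others, the best-ranked XY018 domain they overlapped stood as low as rank 2632, with a median of 678. For 81 of them it was within the first 1000.

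Constituents and clusters were counted by different rules, so their shares do not compare turnover. A constituent had to be overlapped itself, whereas a whole cluster span could meet any of the 500 XY018 domains. The share was lower for constituents (73.9%) than for clusters (79.6%). With gaps of at most 5 kb it was higher for constituents (79.7%) than for clusters (74.6%). Of 15716 constituents, 11616 (73.9%, 73.2 to 74.6) overlapped an XY018 row, where 63.5% of all promoter-distal rows did. Rows of the next 500 domains by width were kept at 69.7%, all distal rows outside the clusters (called other distal rows) at 60.4% and rows at protein-coding starts at 84.7%. Averaged over 10 classes of vehicle fold, constituents were kept 9.78 points more often than other distal rows (95% interval 8.99 to 10.6), and over 10 classes of row width 8.09 points more often (7.27 to 8.90). XY018 rows also lay more densely there, under 24.98% of the cluster spans and 17.6% of the other domains, and the part of that density in the difference was not tested. The 4100 constituents that were lost were weak, with a median of 12 fragments and 389 bp, against 18 fragments and 609 bp for those kept. In their place 4291 XY018 rows without a vehicle row were listed in the same spans, with a median of 11 fragments.

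**Figure D4:**
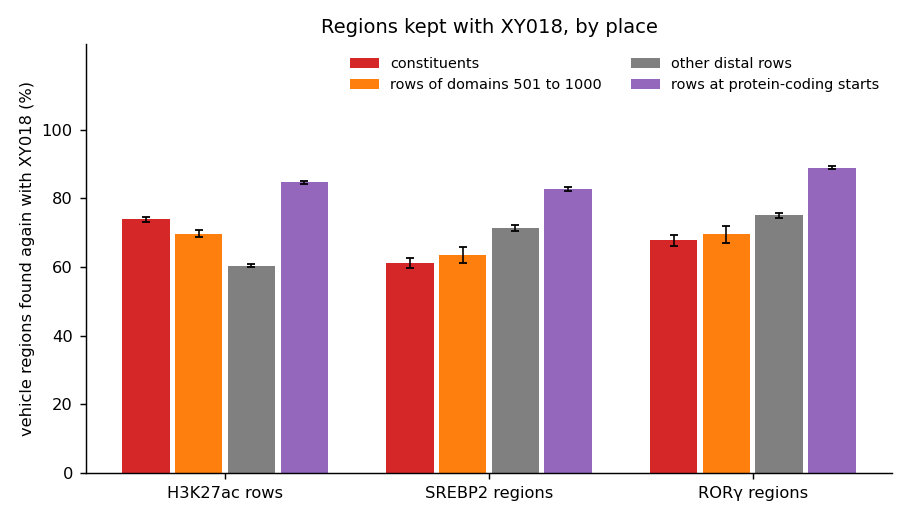
Share of vehicle regions (%) that overlap an XY018 region of the same antibody, for H3K27ac rows and for SREBP2 and RORγ regions, in cluster constituents, the next 500 domains by width, other distal rows and rows at protein-coding starts, with exact binomial 95% intervals as error bars. Among distal places H3K27ac is kept most in constituents (73.9%), and both factors are kept least there (61.2% and 67.8%).

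Signal at kept constituents was level. The median pair of a vehicle and an XY018 row had equal fragment numbers, which becomes 1.10 once divided by the genome-wide backgrounds of the libraries (1.17 and 1.07 fragments). The value was 1.10 at other distal rows and 1.24 at protein-coding starts. Since each vehicle row is set beside the strongest XY018 row it touches, sums over rows lean upward, so cluster sums were taken over the 8386 constituents that paired with only 1 row. On these sums 264 clusters had fewer fragments with XY018, 229 had more and 7 were equal. Scaled by background, 380 clusters lay above 1, with a median of 1.08 and a range from 0.735 to 1.998. The number of clusters above 1 thus went from 229 to 380 with the scaling. These counts were not set beside those of other domains, and by row the median was 1.10 in constituents and at other distal rows alike.

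SREBP2 was present in most clusters but in a minority of their rows. At least 1 vehicle SREBP2 region overlapped a constituent in 459 of the 500 clusters, with a median of 5 and a maximum of 60. RORγ did so in 446, with a median of 4 and a maximum of 48. For each factor the median was 2 regions in the next 500 domains and 0 over all domains. The median number of rows was 27 in clusters, 15 in the next 500 domains and 2 over all domains. The part of row number in these counts was not tested. Counts of clusters by factor regions, here and below, were not set beside those of other domains. By row, 25.1% of constituents (24.4 to 25.7) had an SREBP2 region and 21.2% (20.6 to 21.9) an RORγ region, where 22.2% and 19.6% of all promoter-distal rows did. Rows at protein-coding starts had 58.2% and 49.5%. At like row width the constituents exceeded other distal rows by 1.73 points for SREBP2 (0.979 to 2.48) and by 0.675 points for RORγ (-0.0414 to 1.39), and at like H3K27ac fold by 1.10 and -0.0647 points. For RORγ the unadjusted shares of constituents and other distal rows (19.1%) did not overlap in their intervals, and the differences at like width and like fold included 0. With regions at q of at most 1e-05 alone, 17.8% of constituents had SREBP2 and 12.4% RORγ.

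The shares of rows with both factors were close in the clusters and at other distal rows. Both overlapped 16.4% of constituents (15.8 to 17.0), 15.5% of other distal rows (15.2 to 15.8) and 47.7% of rows at protein-coding starts. Of the constituents, 8.66% had SREBP2 alone, 4.84% RORγ alone and 70.1% neither. Over the 500 clusters the numbers of SREBP2 and RORγ regions ranked alike (Spearman's correlation 0.877, across clusters of the same 2 libraries, which share base composition and size). NOTCH1 held the most SREBP2 regions, 60 with vehicle against 52 under XY018. It tied with TNFRSF18 for the most RORγ regions, 48 each with vehicle, where 58 and 55 were listed with XY018. PPARA had 54 and 42 SREBP2 and 45 and 42 RORγ regions, RXRA, the partner of many nuclear receptors, 53 and 34 SREBP2 regions, CASZ1 47 and 43, and TNFRSF18 45 and 52. BAHCC1 stood among the first for RORγ with 41 and 43 regions, as did CASZ1 with 40 and 45.

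Presence of either factor followed base composition. Constituents were divided into 5 classes of near equal size by the share of G and C within 100 bp of the summit. SREBP2 overlapped 4.62% of the class with least G and C (below 48.8%), then 8.62%, 8.61% and 14.7%, and 87.5% of the class above 63.2%. RORγ went from 5.26% in the first to 73.1% in the last. Other distal rows ran from 1.97% to 84.1% for SREBP2. At like base composition constituents exceeded them by 1.55 points for SREBP2 (1.08 to 2.03) and 0.953 points for RORγ (0.443 to 1.46). With XY018 the last class had SREBP2 in 75.5% and RORγ in 74.7%. Across the 500 the mean base composition of a cluster and its number of SREBP2 regions ranked alike (Spearman's correlation 0.766, a description over clusters of the same library). The part of base composition in these shares was not tested.

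**Figure D5:**
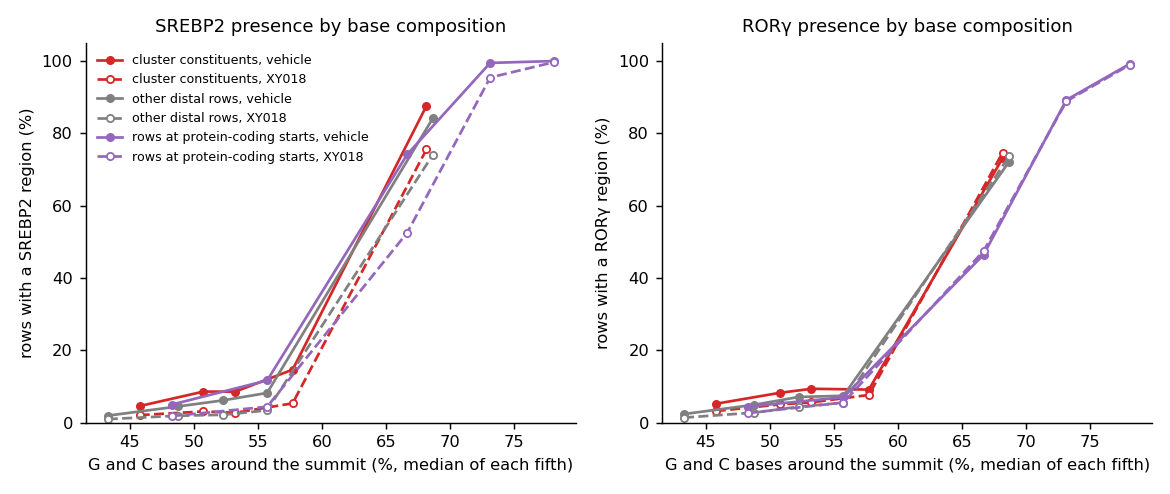
Share of H3K27ac rows with an SREBP2 region (left) or an RORγ region (right) in 5 classes of base composition, plotted at the median G and C share (%) of each class, for constituents, other distal rows and rows at protein-coding starts, with vehicle (filled, solid) and XY018 (open, dashed). Constituents stay under 15% for SREBP2 in the first 4 classes and reach 87.5% in the last with vehicle.

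Motifs around the summits were described in the same windows and 1000 bp to either side. At SREBP2 summits in constituents the GC box was found in 19.5%, against 6.74% at the flanks, the E-box in 5.94% against 4.74%, and the SRE in 2.15% against 2.02%. At RORγ summits the hexamer AGGTCA was found in 16.5% against 17.1% at the flanks, and the ROR response element in 0.237% against 0.3996%. Among all distal rows of the same length 6.59% held the GC box, 2.45% the SRE and 0.276% the ROR response element. The GC box, whose letters are all G and C, differed most between SREBP2 summits and flanks among these. Mean G and C was 65.2% at these SREBP2 summits, 55.7% at their flanks and 54.1% at the summits of all distal rows. The part of base composition in the motif shares was not tested. A match is a description of letters, not a binding site. The ROR response element was searched as a narrow pattern of letters. In the putative elements that the study mutated in the MVK and HMGCS1 promoters, a T stands where the hexamer AGGTCA begins with A. Such elements were not counted by the hexamer or by this pattern. The low shares thus do not show that ROR response elements were absent at RORγ summits.

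SREBP2 was lower with XY018 in the clusters, by region number and by fragments. Region numbers in constituents went from 4041 to 2929, 27.5% fewer, beside 21.1% fewer at other distal rows. The whole SREBP2 list went from 117496 to 69736 regions, a larger fall in proportion than either. Fewer regions were listed in 363 clusters, more in 49 and as many in 88. Of the vehicle regions 61.2% (59.7 to 62.7) were kept, where 68.7% of those at all promoter-distal rows were and 82.8% of those at protein-coding starts. In the other direction 90.03% of the XY018 regions overlapped a vehicle region. At like fold the difference between constituents and other distal rows was -1.58 points (-2.59 to -0.582), and SREBP2 regions in constituents had lower folds, with a median fold of 7.72 against 9.66. The kept regions had a median of 32 fragments with vehicle and 21 with XY018, and 91.0% had fewer with XY018, although the XY018 library was the deeper one by tags (1.07-fold). After scaling by background the median ratio was 0.584 (0.576 to 0.593), beside 0.605 at other distal rows and 0.616 at starts. With no replicate, a weaker precipitation in 1 library and less SREBP2 on chromatin cannot be told apart.

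SREBP2 regions without an RORγ region were kept least. Of 2474 SREBP2 regions in constituents that overlapped a vehicle RORγ region 87.8% (86.4 to 89.0) were kept, and of the 1567 without one 19.2% (17.3 to 21.2). The latter were weaker, with a median fold of 3.84 against 11.5. Averaged over classes of fold that held both kinds, the difference was 20.6 points (16.4 to 24.8), and over classes of base composition 39.1 points (35.3 to 42.9).

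RORγ regions changed less. Numbers in constituents went from 3378 to 3136, 7.16% fewer, with fewer in 232 clusters, more in 142 and as many in 126. The whole RORγ list went from 167375 to 130047 regions, a larger fall in proportion. Of the vehicle regions 67.8% (66.2 to 69.4) were kept, where 73.2% of those at all promoter-distal rows were, and at like fold the difference from other distal rows was 0.127 points (-1.04 to 1.29). The median pair had equal fragment numbers, which gives 1.11 (1.11 to 1.14) over background. That value rests on the scaling, since 45.1% of the pairs had fewer fragments with XY018.

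Within the clusters, H3K27ac fragments were lower with XY018 at rows with both factors than at the other rows. Where neither factor was listed, the median ratio of XY018 to vehicle fragments in rows that paired singly was 1 on raw numbers, or 1.10 over background. Rows with SREBP2 alone and rows with RORγ alone had the same values. Where both were listed it was 0.870, or 0.953 over background. XY018 supplied 45.9% of the fragments of both libraries in the mean row with both factors and 50.1% in the mean row with neither. Averaged over 10 classes of the summed fragments, this difference was -5.27 points (-5.77 to -4.76) in constituents and -2.44 points (-2.71 to -2.17) in other distal rows. These intervals rest on rows of 1 library per group, and the difference between the differences was not tested. Where rows were called by the XY018 factor lists, it was -5.54 points in constituents. Base composition moved with it, at 68.9% G and C with both factors and 52.2% with neither. Over classes of base composition the difference was -2.67 points (-3.78 to -1.56) in constituents and -1.61 points (-2.56 to -0.664) in other distal rows, whose intervals overlap. At protein-coding starts the sign varied with the comparison, at 53.0% with both factors and 50.9% with neither before adjustment, -1.12 points over classes of summed fragments, 0.312 points (-1.06 to 1.69) over classes of base composition and 1.03 points where the XY018 factor lists called the rows.

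Ranks and chromosomes were also compared. Constituents of ranks 1 to 100 were kept at 76.2%, and those of ranks 401 to 500 at 72.1%, and the summed width ratio was 0.993 and 0.940. SREBP2 was present in 27.6% of the rows of the first 100 and 23.02% of the last. The 41 clusters with no SREBP2 region had a median width ratio of 0.923 and the 43 with 20 or more had 0.959, and rank correlation between the number of regions and the ratio was weak (Spearman's correlation -0.047). Clusters made up 9.50% of the domains of chromosome 22, 8.79% of chromosome 19 and 6.61% of chromosome 16, beside 2.80% of all domains. On chromosome X they made up 0.317%, which is 1 cluster among 315 domains. The median local background of a domain's rows was over 1.5 times the genome-wide value in 42.8% of clusters and 32.9% of other domains, and reached 3.14 times in 1 cluster. Its part in the choice of clusters was not tested.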

How the data were processed

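HCC70 chromatin was immunoprecipitated after 24 h of vehicle or XY018 and sequenced. Per the labels the authors' tools were Bowtie2, MACS2 2.1.0 and bedtools on hg19, while the study's methods name BWA and uniquely mapped, deduplicated tags. The deposited peak lists give each region a fold, the ratio of summit pileup plus 1 to local background plus 1, and −log10 p and −log10 q values. The 6 input libraries were not used here. The H3K27ac lists hold part of longer call sets, numbered up to 245055 and 241397, and how these rows were selected was not stated in the labels or methods.

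Summit fragments and background were recovered from fold and −log10 p, and at least 99.9991% of values in each list came out whole within 5% of a step or 0.001 in −log10 p. The recovery and the stitching were tested on simulated data. Clusters were built on chromosomes 1 to 22 and X with protein-coding starts of GENCODE 44 lifted by its makers to GRCh37. A row or region was kept where an XY018 one of the same antibody overlapped it by at least 1 bp. Fragment ratios were divided by the ratio of genome-wide backgrounds. Binomial intervals are exact (Clopper-Pearson, 95%), and those of median ratios come from order statistics. Those of differences over classes rest on the spread among rows. None holds any spread between cultures. No p-value was computed, as each group was 1 library. Comparisons at like fold, width or strength averaged differences over up to 10 classes, weighted by class size. Those at like base composition took the unweighted mean over up to 10 classes.

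Clusters named were the 12 widest, those at the border, the 5 with the highest and lowest width ratio, the 5 with most SREBP2 or RORγ regions, and those of 13 gene lists. Further genes whose starts lay in a span, spans without starts, and microRNAs were picked after their values were seen, as were the comparisons by base composition and by factor class. The members and lists were chosen with earlier results of these data known. Python 3.11.15, numpy 2.4.6, scipy 1.17.1, pysam 0.24.0 and matplotlib 3.10.9 were used. Alternatives were the gap, start window, number of clusters, ranking, choosing library, overlap, q limit, list length and scaling. Some genes of the lists are not reported here.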

Additional observations from a re-analysis of the deposited data

How the results depend on the processing

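No paired analysis was possible because each group held 1 library, and no replicate could be left out. Of 68 alternative values, 31 stayed within the counting interval of the reported value (within 1% for the width ratio). The other 37 are given here, and the cause was not tested. The width ratio of XY018 to vehicle, 0.986, became 0.957 with gaps of at most 5 kb, 0.998 with starts excluded by 1 kb, 0.976 for the 1000 widest domains and 0.934 with lists of equal length. It passed 1 with clusters chosen from the XY018 list (1.12) and with all rows in the spans (1.00288). The share of constituents kept, 73.9%, became 79.7% with 5 kb gaps, 72.5% for 1000 domains, 74.96% when ranked by width times fold, 77.2% with XY018-chosen clusters, 65.1% at q of at most 1e-05, 71.4% with 50% overlap and 70.7% with lists of equal length. Clusters found again, 79.6%, became 74.6% with 5 kb gaps.

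Constituents with SREBP2, 25.1%, became 23.7% with 5 kb gaps, 26.6% with 1 kb around starts, 24.1% for 1000 domains, 28.5% by width times fold, 23.3% with XY018-chosen clusters, 17.8% at the q limit and 24.1% (24.0646) with 50% overlap. Those with RORγ, 21.2%, became, in the same order, 19.5%, 22.7%, 20.6%, 24.3%, 20.1%, 12.4% and 19.98%. SREBP2 regions kept, 61.2%, became 64.7% by width times fold, 59.4% with XY018-chosen clusters and 70.7% at the q limit. RORγ regions kept, 67.8%, became 70.9%, 64.2% and 91.7% in that order, and 65.0% (65.0089) with 50% overlap. The SREBP2 fragment ratio, 0.584, became 0.647 when scaled by tags and 0.573 for regions that overlapped only each other, a setting chosen after seeing the data. In the 5 alternatives where other distal rows were also recomputed, constituents were kept more often and had SREBP2 more often than those rows, and factor regions in them were kept less often. RORγ was likewise more frequent in constituents in 4 of the 5, and with 5 kb gaps it was less frequent (19.5% against 19.6%).

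Lost constituents had a median of 12 fragments, and no alternative varied the depth. No spread between cultures can be given.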

Other observations

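Some wide clusters held no protein-coding start, and the genes under them are named here after their values were seen. The cluster nearest to FRMD8 (rank 27, chr11:65159430-65279445) ran over NEAT1 and MALAT1, long nuclear noncoding RNAs. It measured 43148 bp with vehicle and 45256 bp with XY018, with 14 and 10 SREBP2 regions. The cluster at rank 33 (chr17:57824589-57942169) ran over VMP1 and MIR21 and had 1 SREBP2 region in each library. In the cluster inside PTPRJ, a receptor phosphatase gene (28502 and 27912 bp), no SREBP2 region was listed with vehicle and 2 with XY018. The SKI cluster ran the other way from most, with 33 SREBP2 regions with vehicle and 37 with XY018.

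At all constituent summits the AP-1 motif was found in 3.86%, against 5.81% at the flanks, and the hexamer AGGTCA in 25.8%, against 18.3%. The hexamer followed by GG was found in 16.1% against 8.16%. Among other distal rows AP-1 was at 4.05% against 6.55%, and the hexamer at 23.4% against 16.0% (15.9611). TEAD letters stood in 8.31% of constituents at the summit and 10.2% at the flanks.

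The 92 clusters in which no vehicle SREBP2 region was kept stood beside 30 in which all were. For RORγ these numbers were 82 and 69, and neither pair was set beside that of other domains. At like fold, constituents with an SREBP2 region were kept less often than those without (difference -3.34 points, -5.08 to -1.61), while the unadjusted shares were 79.6% and 72.0%.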
